A study of Mus musculus with 17 samples.

Results

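The genes described here are 8 cytochrome P450 genes of the Cyp2a, Cyp2b, and Cyp3a families and the genes of the 2 nuclear receptors known to drive them, *Nr1i3*, which encodes the constitutive androstane receptor (CAR), and *Nr1i2*, which encodes the pregnane X receptor (PXR). They were chosen by name: all probes carrying 1 of these 10 gene symbols were taken, which gave 16 of the 41174 probes on the array, and the 10 genes are among 21452 with a symbol. Livers of 17 male mice were measured, 1 array per mouse, and the sample labels call the strain C57BL/6N and the methods C57BL/6J. Of these mice, 4 ate chow for 3 months and received a maltose gavage (chow), 4 ate chow and received 1 ethanol binge of 5 g/kg (1B), 4 ate a high-fat diet with 60% of calories from fat for 3 months and received maltose (HFD), and 5 ate the high-fat diet and received the ethanol binge (HFD+1B). All livers were collected 9 hours after the gavage, so each group shares the handling and a gavage, and the ethanol was a single exposure. The labels name no transgene or deletion, and they give no age. Whole liver was used, in which fewer cells of a type and less RNA per cell cannot be told apart.

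CAR and PXR are sensors of drugs, bile acids, and other foreign or endogenous compounds in hepatocytes. Each pairs with the retinoid X receptor and binds repeats of a short motif near its target genes, which then make enzymes that oxidize, conjugate, and export the compound. Cyp2b10 is the classical target of CAR and Cyp3a11 that of PXR. Cyp2a5 hydroxylates coumarin and nicotine, Cyp2a4 hydroxylates steroids, and Cyp2a4, Cyp2b9, and Cyp2b13 are known for a higher level in the livers of female than of male mice.

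Some of these P450 genes are close copies of each other, and a probe for one may bind the transcript of its copy. The promoters of the *Cyp2b9* and *Cyp2b13* pair and of the *Cyp2a5* and *Cyp2a4* pair are shown first, because both genes of a pair were called in the same direction in HFD and in HFD+1B against chow. The windows are the 250 bases before the start of each gene in RefSeq (build GRCm38.p6), all on the plus strand, and capitals mark letters that differ from the other gene of the pair or have no partner in the alignment.

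Cyp2b9, chr7:26173159-26173408: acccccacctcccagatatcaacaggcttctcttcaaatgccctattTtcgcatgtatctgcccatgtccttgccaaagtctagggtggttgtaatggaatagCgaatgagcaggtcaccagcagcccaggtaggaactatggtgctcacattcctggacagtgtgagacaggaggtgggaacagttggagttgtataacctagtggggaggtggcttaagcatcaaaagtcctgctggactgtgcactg
Cyp2b13, chr7:26061245-26061494: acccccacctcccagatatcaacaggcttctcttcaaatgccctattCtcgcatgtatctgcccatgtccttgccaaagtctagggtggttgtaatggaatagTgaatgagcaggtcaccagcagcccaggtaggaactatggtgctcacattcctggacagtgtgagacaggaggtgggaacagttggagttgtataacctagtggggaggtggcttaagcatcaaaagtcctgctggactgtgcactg
Cyp2a5, chr7:26835089-26835338: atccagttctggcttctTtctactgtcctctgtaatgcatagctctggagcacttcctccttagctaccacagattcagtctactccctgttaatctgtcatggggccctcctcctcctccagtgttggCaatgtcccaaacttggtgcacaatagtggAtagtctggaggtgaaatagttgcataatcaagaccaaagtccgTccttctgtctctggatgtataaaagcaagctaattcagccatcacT
Cyp2a4, chr7:26306942-26307191: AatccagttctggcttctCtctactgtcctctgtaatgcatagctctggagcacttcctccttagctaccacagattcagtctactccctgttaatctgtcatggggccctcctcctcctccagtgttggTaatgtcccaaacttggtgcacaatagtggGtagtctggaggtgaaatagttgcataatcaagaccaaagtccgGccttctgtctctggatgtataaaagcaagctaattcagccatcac

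In these windows *Cyp2b9* and *Cyp2b13* were 99.2% identical, with 2 mismatches, and *Cyp2a5* and *Cyp2a4* were 97.6% identical over 251 aligned columns, with 4 mismatches. *Cyp2b10* was further away, at 71.4% identity to either of the other Cyp2b genes. The windows of *Cyp2b10*, which alone of the Cyp2b genes was lower in HFD than in chow, and of *Cyp3a11* on the minus strand follow, with capitals for the motifs AGGTCA and AGTTCA on either strand, the letters that CAR and PXR bind in pairs.

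Cyp2b10, chr7:25897408-25897657: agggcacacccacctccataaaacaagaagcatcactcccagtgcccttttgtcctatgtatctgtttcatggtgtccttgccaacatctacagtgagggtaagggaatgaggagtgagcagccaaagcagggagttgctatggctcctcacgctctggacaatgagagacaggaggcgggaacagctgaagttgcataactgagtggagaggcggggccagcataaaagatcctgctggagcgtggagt
Cyp3a11, chr5:145879855-145880104: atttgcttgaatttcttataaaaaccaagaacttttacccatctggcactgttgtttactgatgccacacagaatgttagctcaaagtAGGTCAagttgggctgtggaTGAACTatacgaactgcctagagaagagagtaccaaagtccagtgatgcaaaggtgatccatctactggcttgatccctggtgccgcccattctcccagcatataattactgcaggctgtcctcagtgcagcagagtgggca

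The *Cyp3a11* window held 1 AGGTCA and 1 AGTTCA, those of *Cyp2b9* and *Cyp2b13* 1 AGGTCA each, that of *Cyp3a25* 2 AGGTCA, and the other windows held neither. Among all 32851 windows of this length, 14% held AGGTCA and 11.8% held AGTTCA, so these matches describe the letters only. No window of the 10 genes held a pair at the spacings searched (direct repeats 3, 4, or 5 bases apart, everted repeats 6 or 8 bases apart). Only 0.0913% of all windows held such a pair, so its absence here says nothing about receptor binding. Sequence beyond the 250 bases and inexact motifs were not searched. Probes were compared by their longest shared run. Each of the 16 probes of these genes was compared with the others and with 10 probes of other Cyp2a, Cyp2b, and Cyp3a genes. Pairs among the latter 10 were left out. The only compared probes of different genes that shared a run of at least 15 bases were those of *Cyp2a4* (A_51_P377154) and *Cyp2a5* (A_52_P246252), with this run of 28 bases:

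Shared run: GTAGACTTGCAGAGGATATTTCAAAGGT

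Each value below is a log2 ratio of liver to a common reference RNA on the same array, so that 0 is the level of the reference, and a difference of 1 between groups is a 2-fold change. Ratios of different genes are not levels that can be ranked against each other. A gene is represented by its probe with the brightest liver signal, and a difference was called when its Benjamini-Hochberg adjusted p in limma, over 34650 probes and fitted on all 17 mice, was 0.05 or less. All 16 probes passed the filter on dim probes, all but 1 were well above background on all 17 arrays, and none was saturated. The exception was A_52_P472486 of *Cyp2b10*, on 16 arrays. Spots marked as outliers by the scanner software were left out, which removed 8 of the 170 values of the brightest probes, and groups of *Cyp2b13*, *Cyp2a5*, *Cyp2a4*, and *Cyp3a11* are therefore given with fewer mice.

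Arrays had a median liver signal of 63 to 158 intensity units, and 73.8% to 85.9% of probes were well above background. The median signal was 63 to 98 in HFD arrays and 99 to 138 in chow arrays, which did not overlap. It was 69 to 134 in 1B and 90 to 158 in HFD+1B arrays. The 13 hepatocyte markers tested were above background on every array. The mean of 5 ribosomal RNA probes was lower in all HFD livers (-3.81 to -2.15) than in the other 13 livers (-1.16 to 1.12). Relative to chow, the mean of the hepatocyte markers ranged over HFD livers from -0.50 to -0.22 and over HFD+1B livers from -0.27 to 0.27. Of the 13 hepatocyte markers, 3 were called lower in HFD than in chow, with a list median of -0.17. The mean of 10 stellate cell markers ranged from 0.56 to 0.81 in HFD and from 0.43 to 1.13 in HFD+1B livers. In HFD livers the mean of 10 macrophage markers was 0.30 to 0.50 and that of 8 sinusoidal endothelial markers 0.27 to 0.46, against at most 0.26 and 0.15 in chow livers. When ribosomal RNA signal was added to the fit, a setting chosen after seeing the data, none of the 10 genes was called in HFD minus chow, HFD+1B minus HFD, or the interaction in limma (2 in each at an unadjusted p below 0.05), and no gene of all those tested was. That signal set the HFD livers apart from all others, so the fit could hardly tell it from the HFD group. The loss of calls therefore cannot show whether the differences with HFD depend on it. The part that the marker shifts and the lower array signal have in the results with HFD was not tested. The 5 slides each held mice of several groups. In 26 of 27 called differences between groups in these genes, every slide that held both groups gave the same sign. These differences were picked by their calls on the same arrays, so this describes them and does not test an effect of slide. Some rest on few slides, such as 1 for *Cyp2a4* in HFD minus chow.

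The transcript of the receptor CAR fell after ethanol on both diets. *Nr1i3* was 0.51, 0.16, 0.87, and 0.76 in the chow mice and 0.10, 0.67, 0.35, and 0.39 in the HFD mice. After ethanol it was -0.46, -0.21, -0.04, and -0.42 in 1B mice and -1.06, -0.77, -0.71, -1.43, and -0.98 in HFD+1B mice. Every mouse given ethanol was below every mouse given maltose, and the HFD+1B mice were below the 1B mice. The difference was -0.86 ± 0.17 (SE) for 1B minus chow (1.81-fold lower, adjusted p = 0.00722 in limma) and -1.37 ± 0.16 for HFD+1B minus HFD (2.58-fold lower, adjusted p = 5.04e-05 in limma). The diet alone gave -0.20 with a 95% interval of -0.56 to 0.16 (adjusted p = 0.513), and HFD+1B was 1.63-fold below 1B (adjusted p = 0.00951 in limma). The order was thus chow, HFD, 1B, HFD+1B. In it chow and HFD were not told apart, and the call between HFD and 1B (0.66, adjusted p = 0.0171 in limma) was lost without 1B mouse 1 (0.60, adjusted p = 0.0515) or HFD mouse 2 (0.57, adjusted p = 0.052). The interaction, the ethanol effect on HFD minus that on chow, was -0.51 and not called (adjusted p = 0.239). Over the other processing settings, 1B minus chow stayed between -0.96 and -0.77. Its call was lost with Cy5 signal alone, with the Tukey test plus Benjamini-Hochberg adjustment, and with a 2-fold limit. The call between HFD+1B and 1B was lost in the same settings and with median centring.

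PXR moved less. *Nr1i2* was -0.17, -0.14, 0.13, and 0.06 in chow mice, and -0.89, -0.62, -0.61, and -0.23 in 1B mice. It was 0.15, 0.22, -0.41, and 0.24 in HFD mice, and -0.14, 0.04, 0.18, -0.25, and 0.12 in HFD+1B mice. The 1B mice had the lowest mean and lay below all chow mice, but 1B mouse 4 overlapped the HFD and HFD+1B mice through their lowest members. The difference of 1B minus chow was -0.56 ± 0.15 and lay just outside the threshold (adjusted p = 0.0531 in limma). It passed when 1B mouse 4 (-0.68, adjusted p = 0.0225) or HFD mouse 3 (adjusted p = 0.018) was left out. HFD+1B was 1.49-fold above 1B (0.58 ± 0.15, adjusted p = 0.0169 in limma), a call that was lost without 1B mouse 1 (0.47, adjusted p = 0.0702). It was also the 1 call that not every slide shared, with values of -0.02 to 0.75 in the 4 slides that held both groups. Between HFD+1B and HFD the difference was -0.06, with a 95% interval of -0.37 to 0.25. No neighbors in the order HFD, HFD+1B, chow, 1B were told apart.

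**Figure D1:**
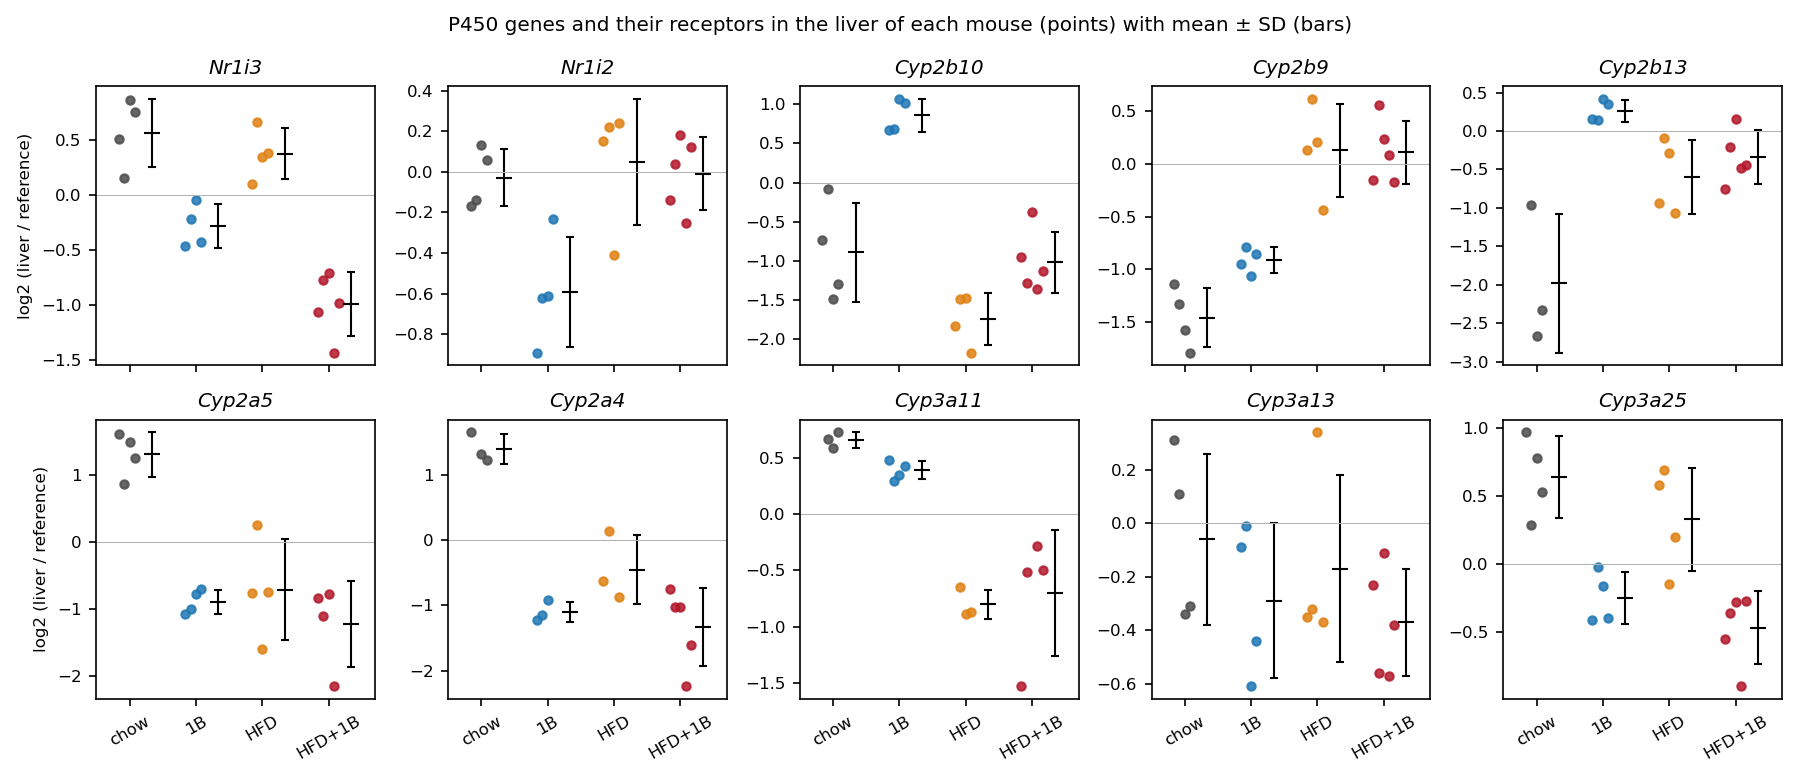
Log2 ratio of liver to reference for the brightest probe of each of the 10 genes, with 1 point per mouse in the 4 groups and the group mean with its SD as a black bar; the vertical scale differs between panels, and 8 values marked as outlier spots are missing. *Nr1i3* was below 0 in all mice given ethanol, *Cyp2b10* was above 0 in all 1B mice only, and no mouse of another group reached the chow mice in *Cyp2a5* or *Cyp2a4*.

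The 3 Cyp2b genes each followed an order of their own. *Cyp2b10*, the classical CAR target, was -0.73, -0.08, -1.48, and -1.29 in chow mice and 0.67, 0.68, 1.06, and 1.01 in 1B mice. It was -1.83, -1.48, -1.47, and -2.17 in HFD mice and -0.95, -1.28, -0.37, -1.36, and -1.13 in HFD+1B mice. All 1B mice were above all other mice, and the chow mice spread most, with an SD of 0.63. *Cyp2b10* was 3.36-fold higher in 1B than in chow (1.75 ± 0.26, adjusted p = 0.00062 in limma). It was 3.67-fold lower in HFD+1B than in 1B (-1.88 ± 0.25, adjusted p = 0.000133 in limma). On HFD the ethanol binge gave a difference of 0.72 ± 0.25 that did not pass the threshold (adjusted p = 0.0523 in limma), although each HFD+1B mouse was above each HFD mouse. This difference passed without chow mouse 2 (adjusted p = 0.0226) or chow mouse 3 (adjusted p = 0.0413), which enter only through the shared estimate of the spread.

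HFD without ethanol had less *Cyp2b10* than chow, by 0.84 ± 0.26 on the log2 scale (1.79-fold, adjusted p = 0.0482 in limma). The groups overlapped, with the lowest chow mouse at the level of the highest HFD mice, and the call was lost in 12 of the 17 fits that left out 1 mouse (adjusted p 0.052 to 0.138) and with slide as a block (adjusted p = 0.0585). HFD+1B and chow did not differ by the test (-0.12, 95% interval -0.65 to 0.40). The order was 1B, chow, HFD+1B, HFD, and of its neighbors only 1B and chow were told apart. The other *Cyp2b10* probe, A_52_P472486, gave 2.09 for 1B minus chow and -1.52 for HFD minus chow, both called, and 1.1 for HFD+1B minus HFD (adjusted p = 0.0457 in limma).

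*Cyp2b9* followed the diet. It was -1.14, -1.33, -1.58, and -1.79 in chow mice and -0.95, -0.79, -1.06, and -0.85 in 1B mice. It was 0.13, 0.62, 0.21, and -0.44 in HFD mice and -0.15, 0.56, 0.24, 0.09, and -0.17 in HFD+1B mice. Mice on HFD were all above mice on chow, whatever the gavage. HFD was 3.01-fold above chow (1.59 ± 0.20, adjusted p = 0.000148 in limma) and HFD+1B 2.04-fold above 1B (1.03 ± 0.19, adjusted p = 0.00181 in limma). Ethanol added -0.02 on HFD, with a 95% interval of -0.41 to 0.38, and 0.55 on chow (adjusted p = 0.168). The order was HFD, HFD+1B, 1B, chow, where neither the first pair nor the last was told apart. The other probe of nearly the same brightness, A_51_P467076, ran in the same directions at a larger size, with an 8.18-fold rise in HFD, an 8.43-fold rise in HFD+1B, and a called 2.2-fold rise in 1B (adjusted p = 0.0283 in limma), each against chow.

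*Cyp2b13* was higher than in chow in all 3 other groups by its brightest probe. The chow mice with a value, mice 2, 3, and 4, were at -0.96, -2.67, and -2.32, and the 1B mice were at 0.15, 0.14, 0.42, and 0.35. The HFD mice were at -0.94, -0.09, -0.29, and -1.07, and the HFD+1B mice at -0.76, -0.21, 0.16, -0.48, and -0.44. Chow mouse 2 overlapped the HFD mice, and the other chow mice were below every other mouse. The difference was 2.24 ± 0.32 for 1B (4.73-fold, adjusted p = 0.000578 in limma), 1.39 ± 0.32 for HFD (2.61-fold, adjusted p = 0.0126), and 1.64 ± 0.31 for HFD+1B (3.11-fold, adjusted p = 0.00146). The HFD difference was not called without chow mouse 3 (1.05, adjusted p = 0.0694) or without chow mouse 4 (1.22, adjusted p = 0.0646). The order was 1B, HFD+1B, HFD, chow, and among neighbors only HFD and chow were told apart. The dim *Cyp2b13* probe A_52_P289091 did not follow: it gave -0.29, 0.08, and 0.39 in the same 3 differences, none of them called. It was called 1.6-fold higher in HFD+1B than in 1B (adjusted p = 0.0175 in limma), where the brightest probe gave -0.60 (adjusted p = 0.221). Its mean signal was 161 intensity units against 2360 for the brightest probe.

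**Figure D2:**
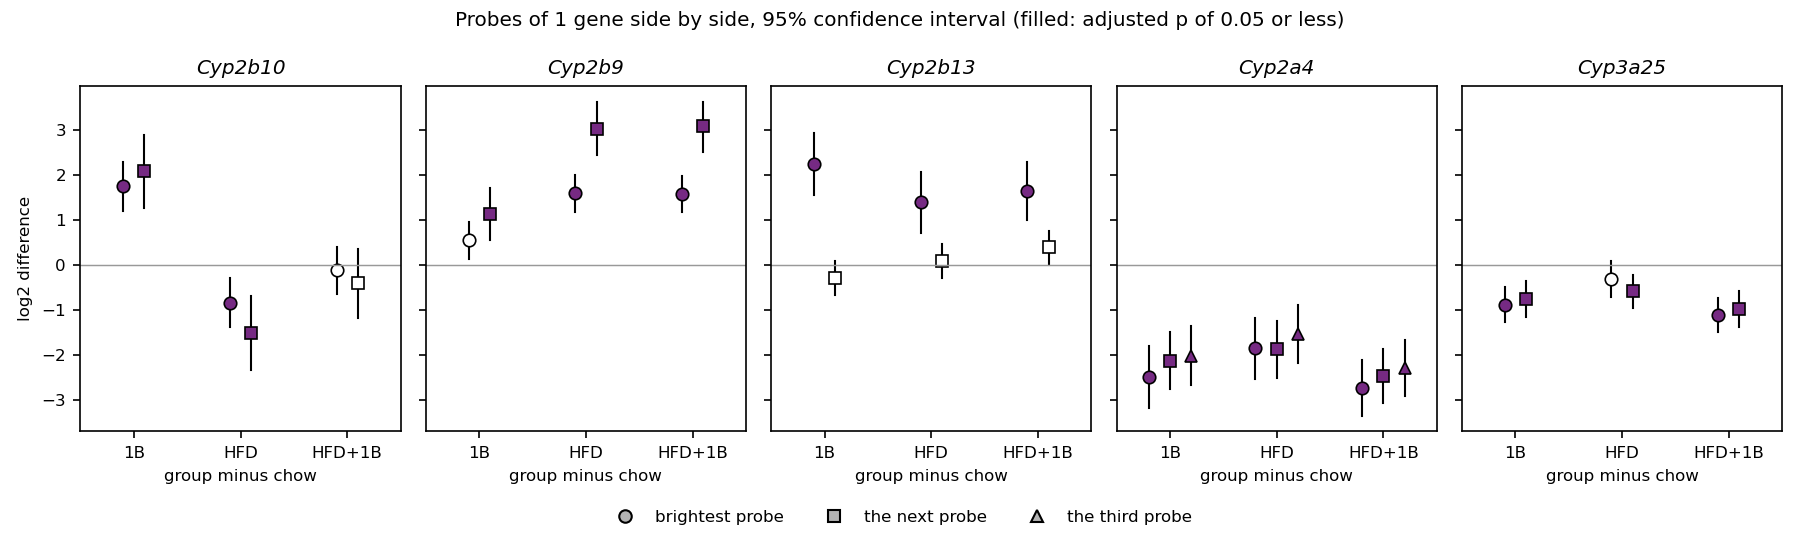
Log2 difference from chow of the 1B, HFD, and HFD+1B groups, with its 95% confidence interval, for each probe of the 5 genes with more than 1 probe; circles are the brightest probe, and filled marks have an adjusted p of 0.05 or less. The *Cyp2a4*, *Cyp2b10*, and *Cyp3a25* probes ran together, the *Cyp2b9* probes differed in size (1.57 and 3.08 in HFD+1B), and the dim *Cyp2b13* probe stayed near 0.

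Both Cyp2a genes were high in chow livers and low in every other group. *Cyp2a5*, the coumarin hydroxylase, was 1.62, 0.87, 1.49, and 1.26 in chow mice. It was -1.07, -1.0, -0.78, and -0.70 in 1B mice, and -0.76, 0.26, -1.59, and -0.75 in HFD mice. In HFD+1B mice 1 to 4 it was -0.84, -1.1, -0.77, and -2.15. No mouse of another group reached the chow range, and 1B mice lay close together while HFD mice spread with an SD of 0.75. *Cyp2a5* was 4.58-fold lower in 1B (-2.2 ± 0.32, adjusted p = 0.000673 in limma), 4.05-fold lower in HFD (-2.02 ± 0.32, adjusted p = 0.00123), and 5.76-fold lower in HFD+1B (-2.53 ± 0.32, adjusted p = 5.03e-05), each against chow. The 3 low groups were not told apart, with -0.51 for HFD+1B minus HFD (95% interval -1.19 to 0.18) and -0.33 for HFD+1B minus 1B (95% interval -1.01 to 0.35), nor were HFD and 1B (0.18, 95% interval -0.51 to 0.86).

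*Cyp2a4*, the steroid hydroxylase, had chow mice 1, 3, and 4 at 1.66, 1.32, and 1.23 and 1B mice 1 to 3 at -1.22, -1.14, and -0.92. Its HFD mice 1, 2, and 4 were at -0.62, 0.14, and -0.87 and its HFD+1B mice at -0.74, -1.03, -1.03, -2.24, and -1.61. Again the chow mice stood alone above the rest. The fall from chow was 5.65-fold in 1B (-2.50 ± 0.32, adjusted p = 0.000402 in limma), 3.61-fold in HFD (-1.85 ± 0.32, adjusted p = 0.00275), and 6.64-fold in HFD+1B (-2.73 ± 0.29, adjusted p = 1.64e-05). All 3 *Cyp2a4* probes were called in these 3 differences, with folds of 4.06 to 5.65, 2.90 to 3.68, and 4.88 to 6.64. HFD+1B was also below HFD (-0.88 ± 0.29, adjusted p = 0.047 in limma), but the other 2 probes did not pass (adjusted p = 0.168 and 0.0877), and the call was lost in 11 of the 17 fits that left out 1 mouse (adjusted p 0.0535 to 0.211). Among the 3 low groups, ordered HFD, 1B, HFD+1B, no neighbors were told apart. Probe A_51_P377154 shares the run of 28 bases printed above with the *Cyp2a5* probe. The other *Cyp2a4* probes share no run of 15 or more bases with the *Cyp2a5* probe. How far each probe binds transcripts of both genes was not tested.

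The 3 Cyp3a genes differed. *Cyp3a11*, the classical PXR target, followed the diet downward. It was 0.67, 0.59, and 0.73 in chow mice 2 to 4 and 0.48, 0.30, 0.35, and 0.43 in 1B mice. It was -0.65, -0.89, and -0.87 in HFD mice 2 to 4, and -1.53, -0.51, -0.28, and -0.50 in HFD+1B mice 1, 2, 4, and 5. Mice on HFD were all below 0 and mice on chow all above it. HFD was 2.76-fold below chow (-1.47 ± 0.23, adjusted p = 0.00141 in limma) and HFD+1B 2.13-fold below 1B (-1.09 ± 0.20, adjusted p = 0.00277 in limma). Over the other processing settings these differences ran from -1.80 to -1.29 and from -1.17 to -0.99. The first call was lost with the Tukey test plus Benjamini-Hochberg adjustment and with the ribosomal RNA covariate. The second was lost with that Tukey setting and with Cy5 signal alone. Ethanol gave -0.27 on chow (95% interval -0.73 to 0.18), although the 1B mice lay below the chow mice, and 0.10 on HFD (95% interval -0.35 to 0.56). HFD+1B mouse 1 had the lowest value. Without it, ethanol on HFD gave a called rise of 0.38 (adjusted p = 0.0289), and the ethanol effect on HFD exceeded that on chow by 0.65 (adjusted p = 0.0318). In the order chow, 1B, HFD+1B, HFD, only the middle neighbors were told apart.

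*Cyp3a25* followed the gavage. It was 0.97, 0.29, 0.78, and 0.53 in chow mice and 0.58, 0.69, -0.15, and 0.20 in HFD mice. After ethanol it was -0.41, -0.02, -0.16, and -0.40 in 1B mice and -0.55, -0.36, -0.28, -0.90, and -0.27 in HFD+1B mice. On each diet every mouse given ethanol was below every mouse given maltose, and across diets HFD mouse 3 overlapped the 1B mice. The fall was 1.85-fold on chow (-0.89 ± 0.19, adjusted p = 0.0107 in limma) and 1.74-fold on HFD (-0.80 ± 0.18, adjusted p = 0.00488 in limma). No neighbors in the order chow, HFD, 1B, HFD+1B were told apart, although HFD minus 1B (0.58, adjusted p = 0.0518 in limma) passed in 4 of the 17 fits that left out 1 mouse (adjusted p 0.0166 to 0.0475). HFD minus chow was -0.31 and not called (adjusted p = 0.31), while the other probe of the gene gave -0.59 and was called (adjusted p = 0.0444). That probe gave -0.39 for HFD+1B minus HFD, which was not called (adjusted p = 0.138). By the brightest probe the fall with ethanol kept its sign over the other processing settings, at -1.02 to -0.80 on chow and -1.09 to -0.55 on HFD. On each diet its call was lost with Cy5 signal alone, the Tukey test plus Benjamini-Hochberg adjustment, a 2-fold limit, and the ribosomal RNA covariate.

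*Cyp3a13*, a Cyp3a gene also known from the intestine, was called in no comparison in limma, and the smallest adjusted p was 0.285. Chow mice ranged from -0.34 to 0.31 and 1B mice from -0.61 to -0.01. HFD mice ranged from -0.37 to 0.34 and HFD+1B mice from -0.57 to -0.11, so that all groups overlapped. Its largest difference was -0.31 for HFD+1B minus chow, with a 95% interval of -0.68 to 0.06 (adjusted p = 0.285).

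Counted over the 10 genes, 2 were higher and 4 lower in 1B than in chow. Of all 19350 genes tested, 4.14% were called in that comparison, 2.09% higher and 2.05% lower. In HFD minus chow, 2 were higher and 4 lower, against 11.0% of all genes called (4.48% higher, 6.55% lower). In HFD+1B minus chow, 2 were higher and 5 lower, against 16.3% (8.90% higher, 7.42% lower). HFD+1B minus HFD had 0 higher in limma (1 at an unadjusted p below 0.05) and 3 lower, against 19.4% (11.0% higher, 8.38% lower), and HFD+1B minus 1B had 2 higher and 3 lower, against 11.4% (6.26% higher, 5.17% lower). HFD minus 1B, used above only for neighbors in the orders, had 14.4% of genes called. The count was furthest from the background for ethanol on chow and nearest to it for ethanol on HFD, where 3 of 10 genes stood beside 19.4%. The first 3 comparisons share the chow mice and the comparisons of a group share its mice, so their counts are not independent. The close copies *Cyp2a5* and *Cyp2a4* were both among the lower genes in the first 3 comparisons and may not be separate signals. The median difference over the 10 genes was -0.42, -0.25, -0.71, -0.13, and -0.28 in these 5 comparisons. That over all genes lay between -0.01 and 0.01, where loess normalization within arrays holds it near 0.

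**Figure D3:**
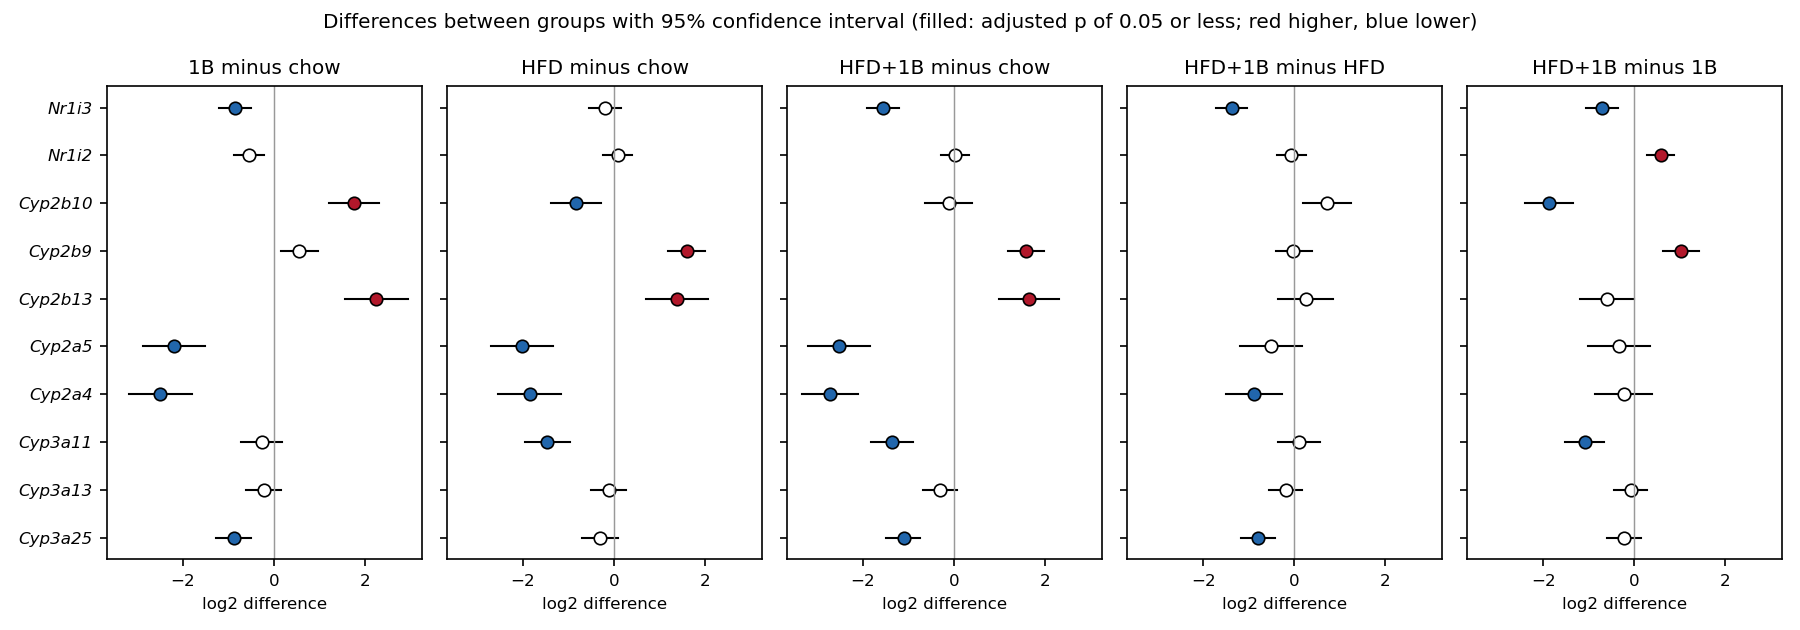
Log2 difference with its 95% confidence interval for the 10 genes (rows) in 5 comparisons (panels); filled points have an adjusted p of 0.05 or less, red higher and blue lower. *Cyp2a5* and *Cyp2a4* were lower than chow in all 3 other groups, *Cyp2b9* was higher wherever HFD was fed, and *Nr1i3* was lower wherever ethanol was given.

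Whether ethanol acted differently on the 2 diets was tested by the interaction. It was called for 3 of the 10 genes, against 4.42% of all genes (2.70% higher, 1.72% lower). Among these, *Cyp2a5* and *Cyp2a4* are close copies and may not be separate signals. For *Cyp2a5* and *Cyp2a4* the fall with ethanol was smaller on HFD, by 1.69 ± 0.46 (adjusted p = 0.0477 in limma) and 1.62 ± 0.43 (adjusted p = 0.049 in limma). The fall of *Cyp2a5* on HFD was itself not called (-0.51, adjusted p = 0.306 in limma). Both genes were already low in HFD livers, and whether this accounts for the smaller fall was not tested. For *Cyp2b13* the rise was smaller on HFD (interaction -1.99 ± 0.43, adjusted p = 0.0187 in limma). Of the other *Cyp2a4* probes, A_51_P377154 was called too (1.54, adjusted p = 0.0436) and A_52_P9703 was not (1.27, adjusted p = 0.104). These calls lay close to the threshold, and that of *Cyp2a5* ended with slide as a block (1.66, adjusted p = 0.0622). Over 13 other settings the interaction call was lost in 7 for *Cyp2a5* (0.22 to 2.14) and in 6 for *Cyp2a4* (1.19 to 2.09). For *Cyp2b13* it was lost in 4 (-2.19 to -0.50). Leaving out 1 mouse ended that of *Cyp2a5* in 13 of 17 fits (adjusted p 0.0619 to 0.0945) and that of *Cyp2a4* in 14 (adjusted p 0.0511 to 0.114). That of *Cyp2b13* ended without chow mouse 3 (-1.65, adjusted p = 0.0501) or chow mouse 4 (-1.82, adjusted p = 0.0567), and its dim probe gave 0.59 with no call. For *Cyp2b10* the interaction was -1.03 ± 0.36 and not called (adjusted p = 0.113). It was called without chow mouse 2 (-1.30, adjusted p = 0.0296).

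**Figure D4:**
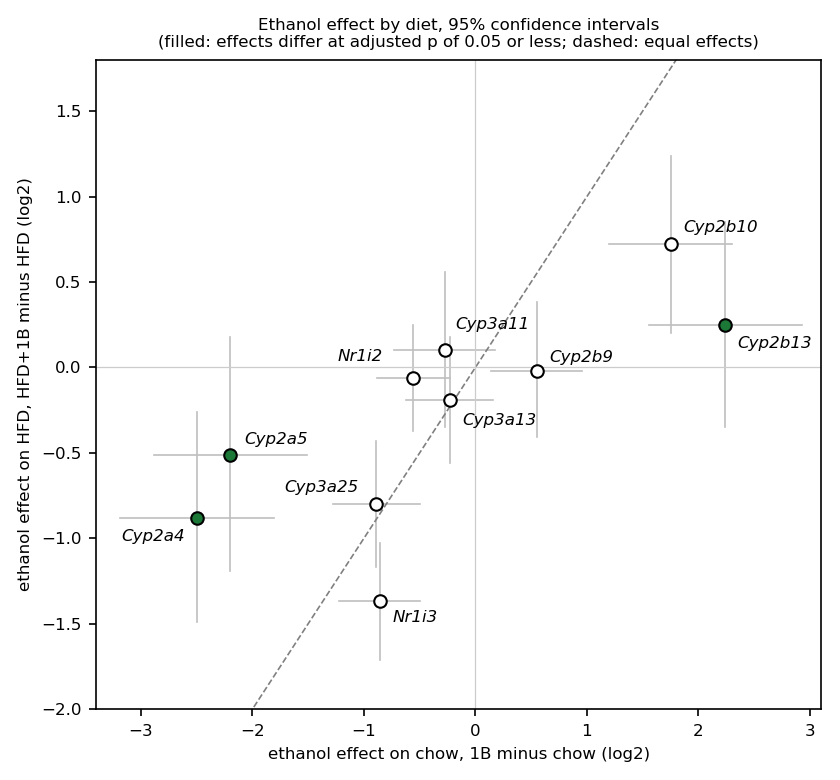
For the 10 genes, 1B minus chow (horizontal) and HFD+1B minus HFD (vertical) on the log2 scale, with 95% confidence intervals as grey lines and the line of equal effects dashed. The 3 filled genes, *Cyp2a5*, *Cyp2a4*, and *Cyp2b13*, had effects that differed between diets at an adjusted p of 0.05 or less, and each lay nearer to 0 on HFD.

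The wider pathway was read from lists of genes. Over all genes, 4.14% were called in 1B minus chow, 11.0% in HFD minus chow, and 16.3% in HFD+1B minus chow. Of 38 other CAR and PXR target genes tested, 2 were higher and 8 lower in 1B than in chow, with a median of -0.08. *Thrsp*, a lipogenic gene induced by CAR, was higher by 2.18 ± 0.26 (adjusted p = 0.000138 in limma), and *Alas1*, the rate-limiting enzyme of heme synthesis and so of P450 assembly, was at -1.89 ± 0.25 (adjusted p = 0.000199). *Papss2*, which supplies sulfate for conjugation, was at -1.13 ± 0.21 (adjusted p = 0.00372). In HFD minus chow, 1 was higher and 9 lower (median -0.14), led by the P450 genes *Cyp1a2* (-2.39 ± 0.22) and *Cyp2c29* (-2.2 ± 0.28) and the carboxylesterase *Ces2a* (-1.76 ± 0.18). In HFD+1B minus chow, 7 were higher and 14 lower (median -0.19). *Cyp1a2* was at -2.68 ± 0.21, *Thrsp* at 2.60 ± 0.25, and the cell cycle inhibitor *Cdkn1a* at 4.03 ± 0.39 in that comparison.

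Ethanol on HFD gave 8 higher and 6 lower of the 38 target genes (median -0.05), with *Cdkn1a* (2.47 ± 0.39), *Thrsp* (2.09 ± 0.27), and *Alas1* (-0.84 ± 0.23) in front. Diet after ethanol gave 5 higher and 6 lower (median 0.08), with *Cyp1a2* at -3.03 ± 0.21. The interaction was called for *Papss2* (1.08 ± 0.28) and for *Abcc2*, a canalicular export pump (0.89 ± 0.17). Over all genes, 19.4% were called for ethanol on HFD, 11.4% for diet after ethanol, and 4.42% in the interaction. *Thrsp* was higher after ethanol on both diets, as *Nr1i3* was lower, whereas *Cyp1a2*, *Cyp2c29*, and *Ces2a* were lower with the diet, as *Cyp3a11* was. These are descriptions of lists in which many genes answer to other factors too.

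Of 28 receptor partners and regulators tested, 4 were called in 1B minus chow (2 higher, 2 lower), 4 in HFD minus chow (2 and 2), and 9 in HFD+1B minus chow (4 and 5). These counts stood beside 4.14%, 11.0%, and 16.3% of all genes called. *Nr0b2*, a repressor that binds nuclear receptors, was lower after ethanol on chow (-1.44 ± 0.26, adjusted p = 0.00298 in limma) and on HFD (-1.27 ± 0.24, adjusted p = 0.00192). *Egfr*, the growth factor receptor through which CAR is held inactive, was lower in HFD (-1.65 ± 0.23, adjusted p = 0.000383) and in HFD+1B (-1.61 ± 0.22, adjusted p = 7.17e-05) than in chow. *Cebpb*, a transcription factor of the liver, rose with ethanol on HFD (1.30 ± 0.21, adjusted p = 0.000544), and its ethanol effect differed between diets by 2.11 ± 0.31 (adjusted p = 0.0024). *Nr1h4*, the bile acid receptor, was lower after ethanol on HFD (-0.80 ± 0.14, adjusted p = 0.00111) with an interaction of -0.87 ± 0.19 (adjusted p = 0.0211). The medians of this list lay between -0.16 and 0.00 in these comparisons and the interaction.

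Of the 8 other Cyp2a, Cyp2b, and Cyp3a genes, 0 were called in 1B minus chow in limma (3 at an unadjusted p below 0.05), and 3 were lower in HFD minus chow: *Cyp3a41a* (-1.77 ± 0.20), *Cyp3a16* (-1.54 ± 0.18), and *Cyp3a44* (-1.46 ± 0.19). The same 3 and *Cyp2a12* and *Cyp2a22* were lower in HFD+1B minus chow, and the first 3 again in HFD+1B minus 1B. Ethanol on HFD lowered *Cyp3a57* (-0.54 ± 0.16, adjusted p = 0.0235 in limma). Over all genes, 4.14% were called in 1B minus chow, 11.0% in HFD minus chow, and 16.3% in HFD+1B minus chow. The share was 11.4% in HFD+1B minus 1B and 19.4% for ethanol on HFD. By correlation over the 14 arrays with a *Cyp3a11* value, the genes most like *Cyp3a11* were *Cyp3a41a* (r = 0.99), *Cyp2u1* (0.91), *Rsl24d1* (0.91), *Trabd* (0.90), and *Las1l* (0.89). The arrays share the 4 groups and the reference, and *Cyp3a11* and *Cyp3a41a* are near copies whose probes may bind each other's transcripts, so this is a description only. Over 17 arrays, those most like *Cyp2b10* were *Txndc11* (0.91), *Shroom1*, *Fam47e*, *Slc37a4*, and *Sec14l4* (0.88 each).

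**Figure D5:**
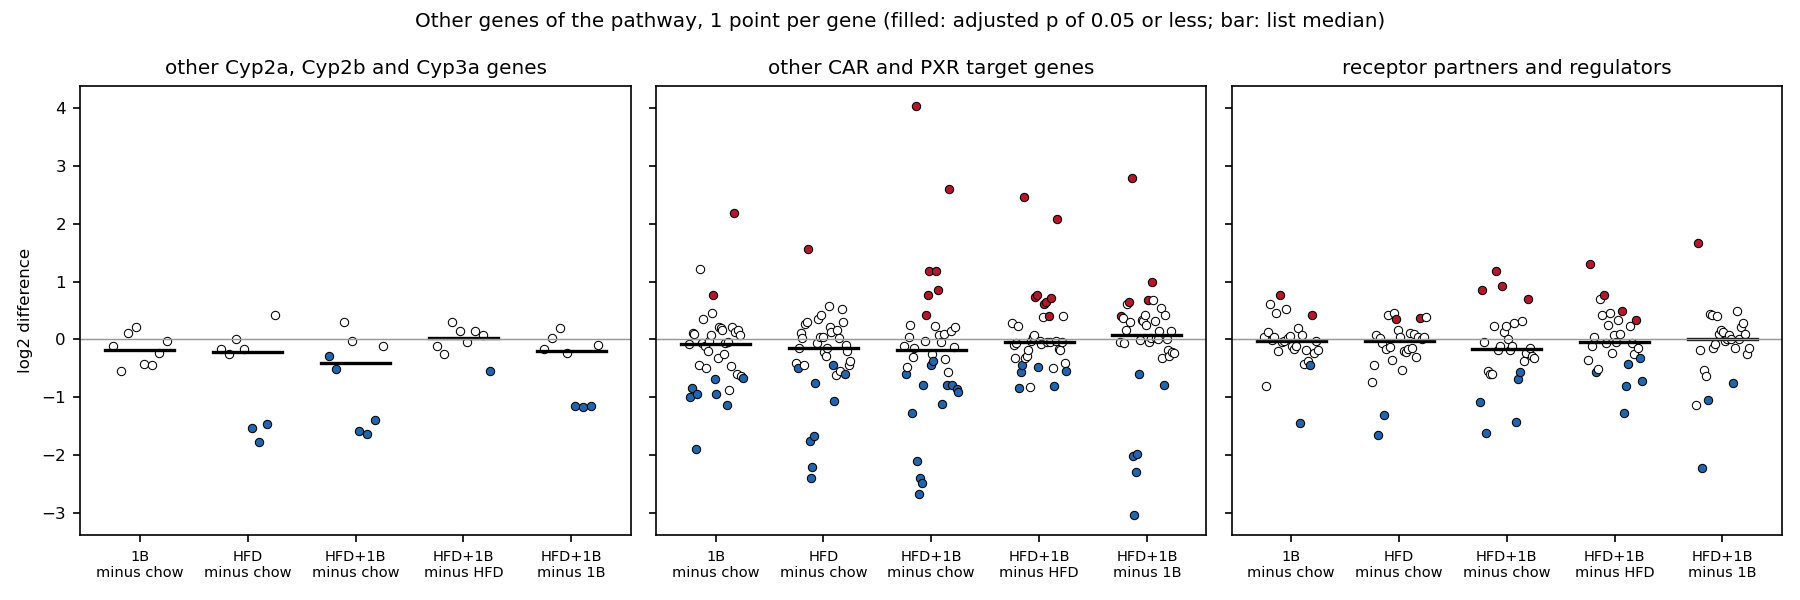
Log2 difference of each gene in 3 lists (panels) in 5 comparisons (horizontal), with 1 point per gene, filled at an adjusted p of 0.05 or less (red higher, blue lower), and the list median as a bar. The medians of all 3 lists lay between -0.40 and 0.08, and the 3 Cyp3a genes stood below the rest of their family where HFD was compared with chow.

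Because *Cyp2a4*, *Cyp2b9*, and *Cyp2b13* are known as genes of the female liver, lists of other sex-biased liver genes were read beside them. Of 24 genes known to be higher in males, the number lower than in chow was 3 for 1B, 14 for HFD, and 21 for HFD+1B, with medians of 0.00, -0.81, and -1.75. In limma 0 were higher in any of these (2 in 1B and 0 in the others at an unadjusted p below 0.05). Among those lower were *Keg1* (-3.59 ± 0.34 in HFD+1B), *Slco1a1*, an uptake transporter (-3.21 ± 0.46 in HFD+1B), and *Cyp7b1*, an oxysterol hydroxylase (-2.93 ± 0.32). Of 19 genes known to be higher in females, 1B had 2 lower than chow, HFD had 3, and HFD+1B had 6. The 3 in HFD were *Cyp3a41a*, *Cyp3a16*, and *Cyp3a44*, which were also counted among the other family genes. How far their probes bind transcripts of *Cyp3a11* was not tested. HFD+1B also had 2 higher, and the other groups had 0 in limma (2 for 1B and 4 for HFD at an unadjusted p below 0.05). The counts of both lists stood beside these shares of all genes, each against chow. In 1B, 2.05% were lower and 2.09% higher, in HFD 6.55% and 4.48%, and in HFD+1B 7.42% and 8.90%. The estrogen sulfotransferase *Sult1e1* rose (2.23 ± 0.28 in HFD+1B), while *Cyp3a41a* and *Cyp3a16*, also on the list of other family genes, fell. In HFD and HFD+1B the rises of *Cyp2b9* and *Cyp2b13* over chow stood beside a fall of 14 and 21 of the 24 male-biased genes, whereas in 1B the rise of *Cyp2b13* stood beside 3. *Cyp2a4* fell in all 3 groups.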

How the data were processed

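Each array held liver cDNA of 1 mouse in Cy5 and a common reference RNA in Cy3 on all arrays, with no dye swap. The authors read the scanned arrays with Feature Extraction 11.5.1.1 and deposited median spot and background signals as raw intensity and processed signals as intensity, together with a table of log2 ratios of the processed signals, which was an alternative here. Intensities were corrected with normexp (offset 50), outlier spots left out, ratios normalized by loess within arrays, and spots averaged per probe. The offset pulls ratios of dim probes toward 0. Probes above background in Cy5 on 4 or more of the 17 arrays were fitted with limma 3.58.1 (R 4.3.3, 13 residual degrees of freedom) on group means, with Benjamini-Hochberg adjustment. The fit was tested on simulated data. The labels do not say whether mice shared cages, and p-values measure the spread between these mice.

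The genes and lists were chosen with earlier results of these data known. Named genes are the 10 genes, the 3 called genes of a list with the largest difference per comparison among those above background on all arrays, and the 5 genes most correlated with *Cyp2b10* and *Cyp3a11*. *Cyp2a12* and *Cyp2a22* were named after their values were seen. Alternatives were other background, normalization, filter, probe, block, and call settings and leaving out each mouse. A covariate of ribosomal RNA signal was added after the data were seen. The number of arrays limits the precision.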

Additional observations from a re-analysis of the deposited data

Results flagged for a closer look

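Of 34 groups of 4 or 5 mice examined over these genes, 2 held a mouse far from the others, and chance gives 1.7 such groups. In both it was HFD mouse 3: its *Nr1i2* was the lowest of the HFD mice, with a gap of 0.859 of the range of the group, and its *Cyp3a13* the highest, with a gap of 0.93. The interaction test was passed by *Cyp2b13* (-1.99), *Cyp2a5* (1.69), and *Cyp2a4* (1.62), each the log2 effect of ethanol on HFD minus that on chow.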

How the results depend on the processing

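Of the 60 differences of the 10 genes, none changed direction while called in the alternatives run. The call was lost for 13 with Cy5 signal alone, for 15 with the Tukey test plus Benjamini-Hochberg adjustment, and for 13 with the ribosomal RNA covariate. The counts of genes called (6, 6, 7, 3, 5, and 3 in the order 1B minus chow, HFD minus chow, HFD+1B minus chow, ethanol on HFD, HFD+1B minus 1B, and interaction) moved by over 1.5 times as follows. With Cy5 signal alone, HFD minus chow had 3, HFD+1B minus HFD 1, HFD+1B minus 1B 2, and the interaction 0 (5 at an unadjusted p below 0.05), while 3.44%, 5.28%, 3.27%, and 0.558% of all genes were called. Analysis of variance with the Tukey test (F test for the interaction), with Benjamini-Hochberg adjustment added, gave 1, 1, 2, and 0, beside 1.65%, 5.57%, 3.06%, and 1.79% of all genes. Without that adjustment, at the methods' threshold, it gave 5, 2, 5, and 5. With at least 2-fold and an unadjusted p, HFD+1B minus HFD had 1 and HFD+1B minus 1B 3 (2.12% and 1.91% of all genes). The interaction had 1 in the authors' log2 table, without the filter on dim probes, and with the mean of all probes (3.95%, 3.43%, and 4.74% of all genes). With ribosomal RNA signal as a covariate, added after the data were seen, 0 of the 10 genes, and 0 of all genes, were called by limma in the interaction and in the comparisons of HFD with chow and with HFD+1B (2 of the 10 in each at an unadjusted p below 0.05). That signal set the HFD arrays apart from the rest, so covariate and HFD group could hardly be told apart in these comparisons. The causes of the moves in the counts were not tested. Without 1 mouse in turn, the counts were 6 to 7, 5 to 6, 7 to 7, 2 to 4, 4 to 5, and 0 to 3. Median centring shifted the median of all genes by up to 0.15 (interaction) and 0.14 (HFD+1B minus HFD) and moved the share of higher calls over all genes from 50.5%, 40.6%, 54.5%, 56.7%, 54.8%, and 61.2% to 40.2%, 13.6%, 66.2%, 89.1%, 75.5%, and 93.4% in the order above. Cy5 alone moved it to 24.5% in HFD minus chow, 71.4% in HFD+1B minus HFD, and 83.3% in the interaction. The replicate numbers were not taken to pair the mice, since not every same-numbered pair of different groups correlated above 0.1 (-0.13 to 0.47, median 0.17 over 24 pairs, against a median of -0.05 for different numbers). Pairs of different groups on the same slide had a median of 0.19 (-0.25 to 0.47 over 21 pairs). All mice numbered 1 were on slide 1, so number and slide overlap in part. The closest mouse of another group had the same number for 9 of 17 mice, and the replicate block raised the interaction calls over all genes from 855 to 1740. With the replicate block the counts were 6, 6, 7, 3, 5, and 3, with none of the 60 calls changed. In limma with the slide block, calls ended for Cyp2b10, HFD minus chow (adjusted p = 0.0585) and for Cyp2a5, interaction (adjusted p = 0.0622), and 1 was added for Cyp2b10, HFD+1B minus HFD. Dim probes, among them 1 of *Cyp2b13*, give compressed ratios. The 2 *Cyp2b13* probes also differed in sign, with -0.29 (dim) and 2.24 (brightest) for 1B minus chow. For HFD+1B minus 1B they gave 0.68 and -0.60. Why they differed was not tested.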
